A study of Mus musculus with 12 samples.

Results

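Peaks of open chromatin assigned to 36 genes of heparan sulfate synthesis were examined: the enzymes that build, sulfate and trim the chain, and the core proteins that carry it. The members were every peak whose nearest gene, as given in the tables, was 1 of these genes. They numbered 857 of 281974 peaks: 234 of 91770 for microglia, 361 of 107627 for NeuN+ and 262 of 82577 for Olig2+ nuclei. The measurement was ATAC-seq, which reads out accessible DNA through adapters placed there by a transposase, on forebrain of C57BL/6 mice at 4 months of age. Wild-type (WT) mice were compared with mice lacking Sgsh (SgshKO), which encodes a lysosomal sulfatase that removes N-linked sulfate from heparan sulfate during its breakdown. The type of Sgsh allele, the sex and the number of animals behind a library are not in the sources used here. Microglia were live cells gated as CD11b+, CX3CR1+ with low CD45. Neuronal and oligodendrocyte-lineage nuclei were gated as negative for PU.1 and positive for NeuN alone or Olig2 alone, after a short incubation in dilute formaldehyde that the microglia did not receive. Each of the 3 sorts had 2 WT and 2 SgshKO libraries (n = 2 in each of 6 groups), so p-values measure the spread between these libraries.

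Heparan sulfate is a linear sugar chain built on serines of a core protein in the Golgi. Xylosyltransferases and galactosyltransferases make a short linkage region, EXTL3 adds the sugar that commits the chain to heparan sulfate, and EXT1 with EXT2 extends it. The NDST enzymes replace acetyl groups by sulfate, after which epimerisation and sulfation at the 2-O, 6-O and 3-O positions create the motifs that growth factors bind, and the extracellular SULF enzymes remove 6-O-sulfate again. In brain the chain sits on syndecans, glypicans and agrin, which act in synapse formation, myelination and growth factor signalling. Chains taken up into lysosomes are broken down stepwise, and loss of SGSH is the cause of the storage disease mucopolysaccharidosis type IIIA.

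Promoter sequence is shown for the genes on whose start-site peaks the genotype results turn: the 4 members that were higher in SgshKO microglia (Xylt2, Ndst2, Hs2st1, Agrn), 2 of the members that were lower in SgshKO NeuN+ nuclei (Gpc5, Hs3st1) and the member that was lower in SgshKO Olig2+ nuclei (Sulf2). Each is the 250 bases before an annotated RefSeq start (GRCm38.p6, which shares its coordinates with mm10), read 5′ to 3′ on the gene's strand and overlapping a peak in at least 2 sorts. Capitals mark the GC box GGGCGG, the CCAAT box and GAGGAAGT, a form of the PU.1 site, on either strand.
Xylt2, chr11:94677494-94677743, minus strand: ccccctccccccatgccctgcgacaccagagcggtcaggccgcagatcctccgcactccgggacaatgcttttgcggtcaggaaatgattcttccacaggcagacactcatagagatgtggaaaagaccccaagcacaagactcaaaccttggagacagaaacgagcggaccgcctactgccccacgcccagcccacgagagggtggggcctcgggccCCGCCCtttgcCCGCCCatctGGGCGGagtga
Ndst2, chr14:20734563-20734812, minus strand: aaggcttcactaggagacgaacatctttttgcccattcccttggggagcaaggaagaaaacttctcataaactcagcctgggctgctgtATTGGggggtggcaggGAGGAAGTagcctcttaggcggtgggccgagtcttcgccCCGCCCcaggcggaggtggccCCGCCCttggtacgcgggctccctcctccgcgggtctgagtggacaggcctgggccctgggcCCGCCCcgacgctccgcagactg
Hs2st1, chr3:144570217-144570466, minus strand: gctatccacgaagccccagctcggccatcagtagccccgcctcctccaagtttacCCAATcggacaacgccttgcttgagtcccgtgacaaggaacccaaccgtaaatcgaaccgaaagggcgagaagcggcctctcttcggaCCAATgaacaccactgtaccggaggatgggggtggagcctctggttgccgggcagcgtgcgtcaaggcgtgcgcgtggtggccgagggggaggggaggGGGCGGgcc
Agrn, chr4:156197489-156197738, minus strand: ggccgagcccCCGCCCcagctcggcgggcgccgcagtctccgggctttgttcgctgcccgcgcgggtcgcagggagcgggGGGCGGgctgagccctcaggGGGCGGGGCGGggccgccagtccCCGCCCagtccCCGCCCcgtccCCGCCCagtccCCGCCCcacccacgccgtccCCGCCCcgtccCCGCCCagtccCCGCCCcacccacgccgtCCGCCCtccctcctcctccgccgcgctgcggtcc
Gpc5, chr14:115091965-115092214, plus strand: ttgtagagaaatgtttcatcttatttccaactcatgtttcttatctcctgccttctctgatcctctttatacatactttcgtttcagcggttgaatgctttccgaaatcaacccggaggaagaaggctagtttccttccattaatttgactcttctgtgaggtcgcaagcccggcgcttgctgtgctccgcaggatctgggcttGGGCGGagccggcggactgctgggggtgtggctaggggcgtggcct
Hs3st1, chr5:39644632-39644881, minus strand: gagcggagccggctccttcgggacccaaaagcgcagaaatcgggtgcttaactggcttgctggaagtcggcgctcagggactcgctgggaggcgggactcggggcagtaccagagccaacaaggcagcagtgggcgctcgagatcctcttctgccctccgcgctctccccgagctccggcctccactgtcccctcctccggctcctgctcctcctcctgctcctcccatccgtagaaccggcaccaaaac
Sulf2, chr2:166155684-166155933, minus strand: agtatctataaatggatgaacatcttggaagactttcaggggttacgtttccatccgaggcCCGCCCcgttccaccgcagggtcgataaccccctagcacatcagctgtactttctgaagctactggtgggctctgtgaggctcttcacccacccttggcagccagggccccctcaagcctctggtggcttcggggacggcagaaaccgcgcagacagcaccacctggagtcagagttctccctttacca

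Agrn had 12 GC boxes in these 250 bases, Xylt2 and Ndst2 had 3 each, Hs2st1, Gpc5 and Sulf2 had 1 each, and Hs3st1 had 0. Of the 36 members, 27 matched the RefSeq promoter table, with 32 start windows of this length. The GC box, searched on both strands with overlapping matches kept, was in 19 of the 32 windows, against 32.7% of all 32851 windows in the table. GAGGAAGT was in 1 member window (Ndst2), against 2.44% of all windows. CACGTG, the E-box core that MITF and TFE family factors can bind, was in 3 (Ext2, Extl2 and Hs3st3a1), against 6.02%. CCAAT was in 13, against 33.8%, GCATGCG, the core of the NRF1 site, in 1 (Ext2), against 3.02%, and the AP-1 site TGANTCA in 0, against 6.75%. The median GC content was 64.2% in member windows and 52.4% in all windows. These matches describe the letters in the windows and not the binding of a factor.

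Libraries held 10771659 to 11804222 tags in microglia, 14326703 to 17706971 in NeuN+ nuclei and 15044194 to 19555924 in Olig2+ nuclei. The share of tags inside peaks was 48.7% to 67.4%, 21.2% to 26.7% and 30.9% to 31.8%, and in NeuN+ nuclei it was lower in both SgshKO libraries (21.5% and 21.2%) than in both WT libraries (26.7% and 25.9%). In microglia SgshKO replicate 1 stood apart at 67.4%, with the other 3 libraries at 48.7% to 55.8%. Median reads per peak were 17 to 39 per library. Peaks near the start sites of cell type markers matched the sorts: 9 of 10 microglial markers had one in microglia, 10 of 10 neuronal markers in NeuN+ nuclei and 10 of 10 oligodendrocyte markers in Olig2+ nuclei. Microglial markers had a start-site peak for 1 of 10 genes in NeuN+ and 2 of 10 in Olig2+ nuclei, with Cx3cr1, P2ry12, Tmem119 and Csf1r among those without one. The microglia table held such peaks for 6 of 10 oligodendrocyte markers (Mag, Mobp and Sox10 had none), 2 of 10 neuronal, 3 of 6 endothelial and 2 of 6 blood myeloid markers. Endothelial and blood myeloid markers had 0 in both nuclei tables, and astrocyte markers had 4, 3 and 2 of 8 in microglia, NeuN+ and Olig2+ nuclei. Values throughout are tags per peak scaled to 10000000 tags per library, here called normalized tags, and compare a peak between libraries but not peaks of different width with each other.

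Every member had a peak in NeuN+ nuclei, and 28 of the 36 had one in microglia and 28 in Olig2+ nuclei. In 24 members there were peaks in all 3 tables. Ndst3 and Hs3st4, whose products N-sulfate and 3-O-sulfate the chain, had 11 and 15 peaks in NeuN+ nuclei that overlapped no peak of the other sorts, and Hs3st5 and Sulf1 also had peaks in that sort alone (6 and 5). Microglia had none for Ndst4, Hs3st1, Sdc2 and Gpc6, and Olig2+ nuclei had none for Glce, Hs6st2, Hs6st3 and Hs3st3a1. The largest cluster was Sulf2 in Olig2+ nuclei: 71 peaks, against 22 in microglia and 17 in NeuN+ nuclei, of which 53 overlapped no peak of another sort. Ndst1 followed with 54 in Olig2+ nuclei against 15 and 24. Xylt1 had the most in NeuN+ nuclei, 40 against 20 in microglia and 14 in Olig2+ nuclei, and 34 of the 40 were found in that sort alone. Over all peaks, 60.2% in microglia, 59.9% in NeuN+ and 51.2% in Olig2+ nuclei overlapped no peak of another sort, against 59.0%, 68.7% and 56.9% of member peaks. These counts come from peak sets called separately in each sort, and a gene without a peak is not shown to be closed.

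**Figure D1:**
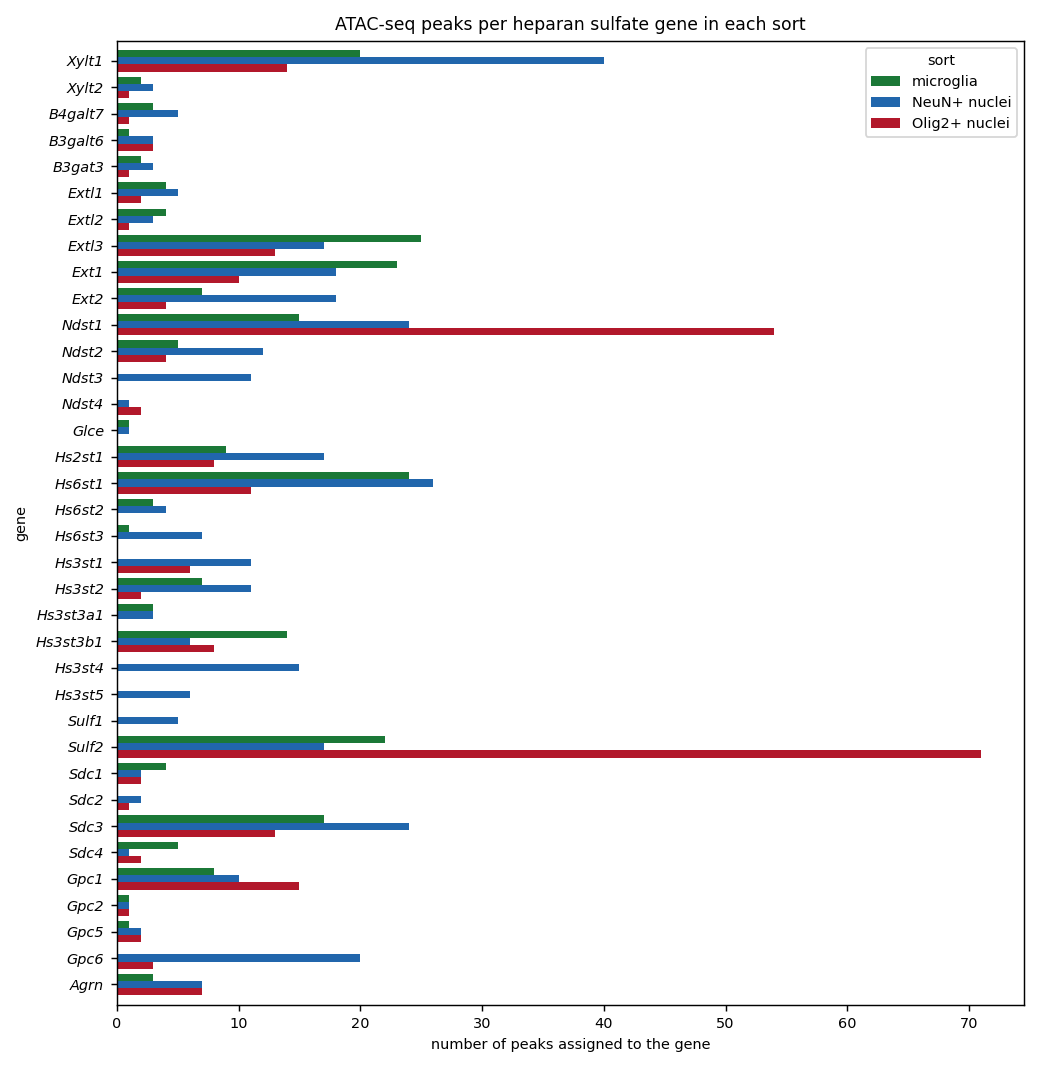
Number of ATAC-seq peaks whose nearest gene is each of the 36 genes (x axis), for microglia (green), NeuN+ nuclei (blue) and Olig2+ nuclei (red), with genes in the order of their step in synthesis. Sulf2 (71) and Ndst1 (54) have the longest bars in Olig2+ nuclei and Xylt1 (40) in NeuN+ nuclei, while Ndst3, Hs3st4, Hs3st5 and Sulf1 have bars for NeuN+ nuclei alone.

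Which member peaks differed between SgshKO and WT was tested with limma on log2(normalized tags + 1) within each table. A call needed a p below 0.05 after Benjamini-Hochberg adjustment across every peak of that table. In microglia 29 member peaks of 15 genes were called, 20 higher and 9 lower in SgshKO. Over all microglia peaks 5.05% were called higher and 2.33% lower, and the median log2 change was -0.08, against 0.05 for the member peaks. In NeuN+ nuclei 102 member peaks of 30 genes were called, 41 higher and 61 lower, where 10.2% of all peaks were called higher and 19.6% lower (medians -0.14 for members and -0.23 for all). In Olig2+ nuclei 47 member peaks of 14 genes were called, 19 higher and 28 lower, against 8.17% and 11.7% of all peaks (medians -0.16 and -0.07). The WT and SgshKO libraries did not overlap at any called member peak. With 2 libraries per group a call nearly requires such a separation, so it adds no support to the calls. The share over all called peaks was not counted.

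The counts moved with single libraries and with the scaling. Leaving out WT replicate 1 or 2 lowered the microglia count to 3 and 2. Without SgshKO replicate 1, the microglia library that stood apart, the microglia count was 48 and its split turned from 20 higher and 9 lower to 20 higher and 28 lower. Over all microglia peaks the split turned with it, from 4631 higher and 2134 lower to 5907 and 12943. Without SgshKO replicate 2 the count was 53, with 38 higher and 15 lower. The NeuN+ count was 43 with either WT library left out, but the split of 41 higher and 61 lower turned to 26 higher and 17 lower without WT replicate 1 and was 17 and 26 without WT replicate 2. Without SgshKO replicate 1 or 2 limma called 0 NeuN+ member peaks, with 112 and 107 at an unadjusted p under 0.05. That loss covered the whole table, in which limma called 0 of 107627 NeuN+ peaks in each case, with 33265 and 32556 at an unadjusted p under 0.05, so every NeuN+ call of SgshKO against WT named here is lost without either of these libraries. In Olig2+ nuclei the split of 19 higher and 28 lower turned to 11 and 8 without WT replicate 1 and to 9 and 8 without WT replicate 2. When libraries were scaled to their tags in peaks, the split in NeuN+ nuclei turned from 41 higher and 61 lower to 73 and 26, and the median change of all NeuN+ peaks moved from -0.23 to 0.05. With median-of-ratios scaling that split was 66 and 35. In microglia in-peak scaling gave 21 higher and 20 lower, with a median over all peaks of -0.28. In Olig2+ nuclei median-of-ratios scaling gave 26 higher and 20 lower.

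The start-site peak of a gene, the one nearest to its start and within 1000 bp of it, was examined for each member. Microglia had 26, of which 4 were higher (Xylt2, Agrn, Hs2st1 and Ndst2) and 0 lower (1 at an unadjusted p under 0.05, 1 in edgeR and 0 in DESeq2). With either WT library left out Xylt2 alone was called, and edgeR called 8 higher. Over all microglia peaks within 1000 bp of a start, 8.59% were called higher and 1.2% lower. NeuN+ nuclei had 34, of which 21 were lower and 0 higher (0 at an unadjusted p under 0.05, 0 in edgeR and 0 in DESeq2), where 44.9% of all peaks near starts were lower and 1.74% higher. Counted over member peaks near starts, 26 of 55 in NeuN+ nuclei were lower. The 21 became 10 with quantile normalization, 14 with in-peak scaling, 17 with median-of-ratios scaling and 7 with DESeq2. The 14 not called by DESeq2 were those of Xylt1, B3galt6, B3gat3, Extl1, Hs6st1, Hs6st2, Hs6st3, Hs3st2, Hs3st3b1, Hs3st4, Sdc4, Gpc1, Gpc2 and Agrn. Olig2+ nuclei had 23, of which 4 were higher (Ndst1, Extl3, Agrn and Gpc1) and 1 lower (Sulf2), where 12.7% of all peaks near starts were higher and 7.56% lower. With in-peak, median-of-ratios or quantile scaling Sulf2 was no longer called, median-of-ratios scaling gave 7 higher and leaving out either WT library gave 2. Among the 20 genes with a start-site peak in all 3 sorts, Agrn was the member called in each of them, higher in microglia and Olig2+ nuclei and lower in NeuN+ nuclei.

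**Figure D2:**
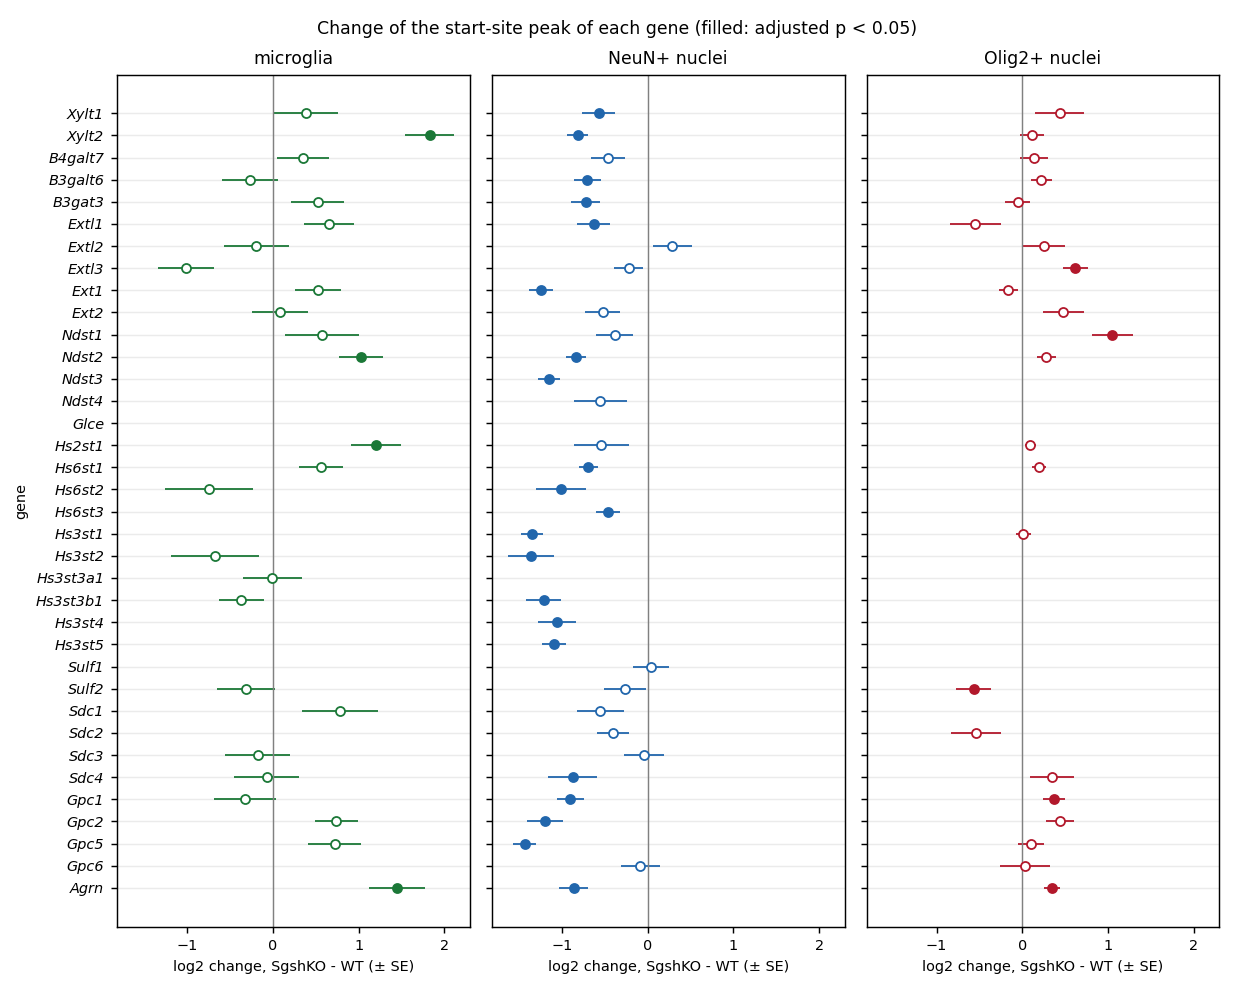
log2 change of the start-site peak of each gene in SgshKO against WT (x axis, points, with standard errors as bars) in microglia, NeuN+ and Olig2+ nuclei, with filled points for an adjusted p under 0.05 and no point where a gene had no such peak. The 21 filled points of NeuN+ nuclei lie left of 0, the 4 of microglia lie right of it, and in Olig2+ nuclei 4 lie right and 1 left.

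The linkage region is started by the xylosyltransferases XYLT1 and XYLT2. The start-site peak of Xylt2 (chromosome 11, 94677342 to 94677608 in microglia, mm10) had 83.8 and 84.7 normalized tags in the WT and 327 and 278 in the SgshKO microglia libraries. Both SgshKO libraries were over 3-fold above both WT libraries, a log2 change of 1.83 ± 0.28 (SE, adjusted p = 3.76e-05) that remained called under each of the 13 alternatives. In NeuN+ nuclei the same start site had 143 and 128 in WT and 74.0 and 79.4 in SgshKO, with both SgshKO libraries below (-0.81 ± 0.12, adjusted p = 0.000123, not called after quantile normalization). The Olig2+ libraries overlapped, at 107 and 82.8 in WT and 89.8 and 116 in SgshKO.

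At Xylt1 the microglial changes lay away from the start. Of its 20 peaks 7 were higher and 0 lower (0 lower at an unadjusted p under 0.05, in edgeR or in DESeq2), against 5.05% and 2.33% of all microglia peaks. The 7 were in introns 1 and 2, from 33878 to 114100 bp downstream of the start. With either WT library left out 0 of them remained called. The peak of smallest p (chromosome 7, 117494953 to 117495205, intron 2 of 11) had 4.32 and 5.08 normalized tags in WT and 25.1 and 29.7 in SgshKO (2.32 ± 0.48, adjusted p = 0.00173). An overlapping peak in Olig2+ nuclei (chromosome 7, 117495029 to 117495262) had 64.8 and 64.9 in WT and 108 and 121 in SgshKO. It too was higher in both SgshKO libraries (0.80 ± 0.13, adjusted p = 7.67e-05), as were 3 other Xylt1 peaks of that sort at 91576, 94366 and 104264 bp, of 14. A peak 256955 bp upstream was lower in Olig2+ nuclei, 11.4 and 19.4 in WT and 4.30 and 3.32 in SgshKO (-1.73 ± 0.35, adjusted p = 0.000825).

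In NeuN+ nuclei 6 of 40 Xylt1 peaks were higher and 2 lower, against 10.2% and 19.6% of all peaks there. The higher Xylt1 peaks lay elsewhere than those of the other sorts: 4 upstream of the gene, from 23515 to 273931 bp, and 2 at 317772 and 318835 bp downstream of its start. The one of smallest p, chromosome 7, 117106918 to 117107178, had 20.4 and 25.4 normalized tags in WT and 57.2 and 51.4 in SgshKO (1.22 ± 0.19, adjusted p = 0.00021). The start-site peak was lower, 49.9 and 39.5 against 30.0 and 29.2 (-0.57 ± 0.19, adjusted p = 0.0321), and lost its call under each other scaling and with either WT library left out. Of the galactosyl- and glucuronosyltransferases that finish the linkage region, B3galt6 (-0.70 ± 0.16, adjusted p = 0.00298) and B3gat3 (-0.72 ± 0.17, adjusted p = 0.00421) had lower start-site peaks in NeuN+ nuclei, and neither was called with in-peak scaling. The B3galt6 peak is also within 1000 bp of the start of Sdf4. B4galt7 had 45.3 and 47.4 in WT and 27.9 and 40.0 in SgshKO NeuN+ nuclei and was not called (adjusted p = 0.0817). In microglia and Olig2+ nuclei the start-site peaks of these 3 genes did not pass the test.

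**Figure D3:**
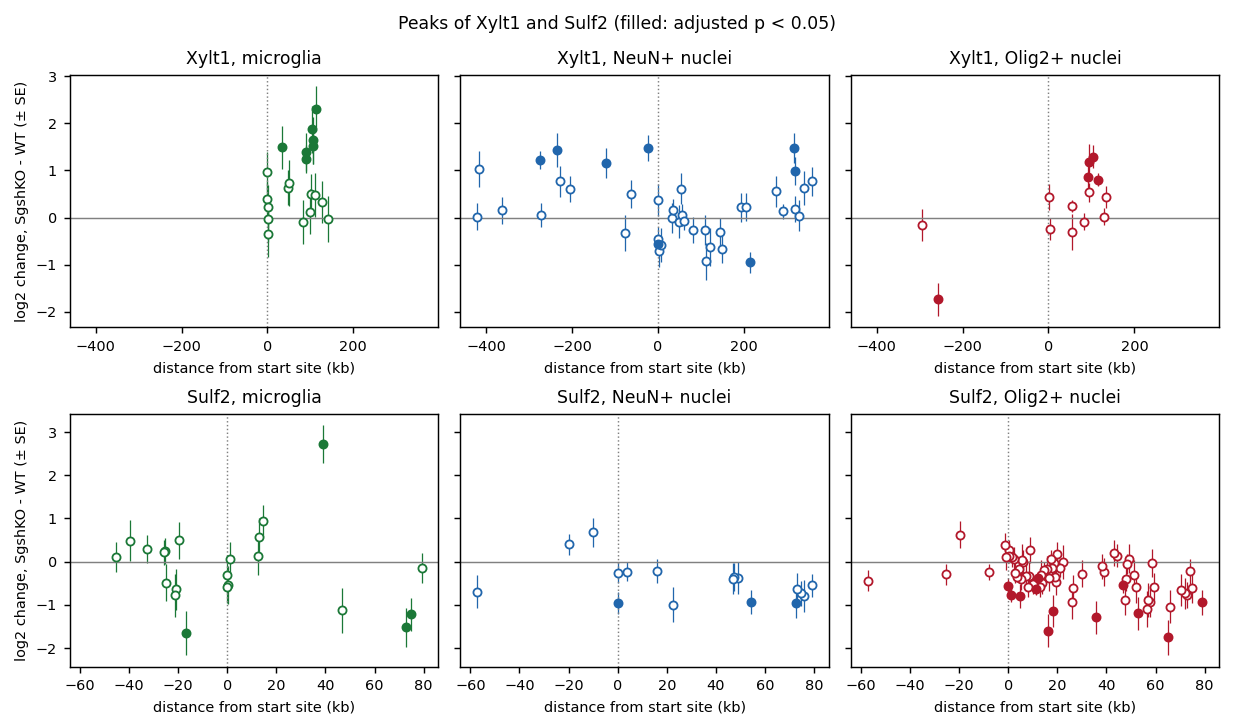
log2 change in SgshKO against WT (y axis, with standard errors) of each Xylt1 peak (upper row) and each Sulf2 peak (lower row) by its distance from the start site in kb (x axis, negative upstream), for microglia, NeuN+ and Olig2+ nuclei, with filled points for an adjusted p under 0.05. The 7 filled Xylt1 points of microglia and the 4 that rise in Olig2+ nuclei lie inside the gene, and the 12 filled Sulf2 points of Olig2+ nuclei lie below 0.

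Chain polymerisation rests on EXTL3, EXT1 and EXT2. At the Extl3 start site the microglia libraries had 96.8 and 103 normalized tags in WT and 41.6 and 57.6 in SgshKO, a log2 change of -1.01 ± 0.33 with an adjusted p of 0.0508, just short of a call. In Olig2+ nuclei, where the start-site peak lies 168 bp upstream, they had 61.2 and 52.2 in WT and 87.9 and 86.4 in SgshKO (0.62 ± 0.15, adjusted p = 0.00372). The SgshKO libraries thus lay below the WT libraries at the microglia peak (chromosome 14, 65097963 to 65098188). They lay above them at the Olig2+ peak (65098174 to 65098375), whose call was lost without WT replicate 2. These peaks overlap only at their edges and so are not a single site, and the difference between the sorts was not tested. A CpG-island peak 51960 bp upstream of Extl3 was called in all 3 sorts. It rose in Olig2+ nuclei from 263 and 294 to 361 and 373 (0.40 ± 0.08, adjusted p = 0.000442, chromosome 14, 65149957 to 65150176) and in microglia from 65.7 and 44.9 to 96.1 and 205 (1.35 ± 0.34, adjusted p = 0.00965). In NeuN+ nuclei it fell from 152 and 133 to 101 and 88.2 (-0.58 ± 0.12, adjusted p = 0.00184). Within 1000 bp of that island, microglia also had a peak that fell from 10.4 and 14.4 to 0.87 and 3.71 (-2.16 ± 0.56, adjusted p = 0.0128), a call lost after quantile normalization and with either WT library left out.

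In Olig2+ nuclei 5 of 13 Extl3 peaks were higher and 0 lower (0 lower at an unadjusted p under 0.05, in edgeR or in DESeq2), where in microglia 1 of 25 was higher and 2 were lower. Of all peaks, 8.17% were higher and 11.7% lower in Olig2+ nuclei, and 5.05% and 2.33% in microglia. In NeuN+ nuclei an Extl3 peak in intron 1 (chromosome 14, 65086226 to 65086444) rose from 3.97 and 1.69 to 16.1 and 15.2 (2.19 ± 0.37, adjusted p = 0.000337).

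Of all Olig2+ peaks 11.7% were lower and 8.17% higher. Of the 10 Ext1 peaks of that sort 5 were lower and 0 higher (0 higher at an unadjusted p under 0.05, in edgeR or in DESeq2), with the change below 0 in each of the 10. Without WT replicate 1 the 5 became 1, and in DESeq2 1 of 6 tested. The peak of smallest p among all member peaks in Olig2+ nuclei was one of them, intergenic and 282391 bp downstream of the Ext1 start (chromosome 15, 53063640 to 53063944). Its WT libraries had 202 and 191 normalized tags and its SgshKO libraries 71.9 and 99.7. Both SgshKO libraries were thus far below both WT libraries (-1.20 ± 0.13, adjusted p = 4.68e-08), and it remained called under each of the 13 alternatives. The Ext1 start-site peak of Olig2+ nuclei had 160.3 and 142 in WT and 136 and 132 in SgshKO and was not called (adjusted p = 0.292). In NeuN+ nuclei the start-site peak did fall, from 116 and 120.3 to 44.7 and 54.6 (-1.24 ± 0.14, adjusted p = 9.88e-06), and of the other start-site peaks of this step there, Extl1 was lower (-0.63 ± 0.19, adjusted p = 0.0192, not called under any other scaling) and Ext2 had 39.1 and 33.3 in WT and 23.7 and 26.0 in SgshKO without a call (adjusted p = 0.059). Microglia had no called start-site peak among Ext1, Ext2, Extl1 and Extl2, and Extl1 had 135 and 118 in WT and 239.8 and 165 in SgshKO (adjusted p = 0.167).

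The NDST enzymes open the sulfation of the chain, and their start sites differed between sorts. Ndst2, the member of the family best known from mast cell heparin, had 285 and 245 normalized tags at its start in WT microglia and 554 and 526 in SgshKO microglia. The SgshKO libraries were about 2-fold above the WT libraries (1.03 ± 0.25, adjusted p = 0.00798). A second microglial Ndst2 peak, in a LINE repeat 9214 bp upstream, went the other way, from 51.9 and 44.0 to 15.6 and 8.36 (-1.97 ± 0.43, adjusted p = 0.00265). Both microglial Ndst2 calls were lost with either WT library left out. In NeuN+ nuclei the start site fell from 172 and 152 to 96.3 and 85.1 (-0.83 ± 0.12, adjusted p = 7.06e-05, not called after quantile normalization), and in Olig2+ nuclei it had 159.8 and 147 in WT and 163 and 213 in SgshKO (adjusted p = 0.0709).

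Ndst3, whose peaks were found in NeuN+ nuclei alone, showed opposite changes within 1 locus. Its start-site peak (chromosome 3, 123690778 to 123691024) had 143 and 141 normalized tags in WT and 59.3 and 67.9 in SgshKO (-1.15 ± 0.13, adjusted p = 6.45e-06). A peak 63606 bp upstream had 9.63 and 11.3 in WT and 39.1 and 33.0 in SgshKO (1.69 ± 0.24, adjusted p = 7.39e-05). The start was thus below WT in both SgshKO libraries and the upstream peak over 2-fold above it, and both directions held under each scaling tried. Ndst1, the main form in most tissues, had a called start-site peak in Olig2+ nuclei, which rose from 15.6 and 16.4 to 30.1 and 38.5 (1.05 ± 0.23, adjusted p = 0.00195). It began at 60748522 on chromosome 18, while the start-site peak of microglia, at another annotated Ndst1 start, began at 60727507. Of the 10 Ndst1 peaks within 1000 bp of a start in Olig2+ nuclei, 2 were higher and 1 lower, against 12.7% and 7.56% of all such peaks. A peak 15839 bp downstream of the start was lower there, 62.2 and 77.7 in WT and 46.7 and 42.5 in SgshKO (-0.63 ± 0.17, adjusted p = 0.00774), a call lost in DESeq2 and without WT replicate 2. Of the 54 Ndst1 peaks of that sort 2 were higher and 3 lower, against 8.17% and 11.7% of all Olig2+ peaks. Ndst4 had 1 peak in NeuN+ nuclei, with 13.6 and 14.1 in WT and 11.9 and 6.98 in SgshKO (adjusted p = 0.179).

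HS2ST1 adds the 2-O-sulfate after the epimerase GLCE has acted. The microglial Hs2st1 start-site peak, which is also within 1000 bp of the start of Selenof, rose from 102 and 81.3 normalized tags to 189.6 and 234 (1.20 ± 0.29, adjusted p = 0.00727). In Olig2+ nuclei it had 448 and 463 in WT and 499 and 474 in SgshKO (adjusted p = 0.296). NeuN+ nuclei had a called Hs2st1 peak in intron 1, 92013 bp from the start, that rose from 5.10 and 6.78 to 22.3 and 19.7 (1.67 ± 0.29, adjusted p = 0.000495). Glce had 1 peak in microglia and 1 in NeuN+ nuclei, 0 of them at its start.

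Of the 6-O-sulfotransferases, Hs6st1 had the most peaks (24, 26 and 11 in microglia, NeuN+ and Olig2+ nuclei). In NeuN+ nuclei 8 of its 26 were higher and 4 lower, against 10.2% and 19.6% of all peaks there. The 8 higher ones lay between 59206 and 572220 bp upstream of the start, in intergenic sequence. Without WT replicate 2 the number of higher peaks fell from 8 to 0 (7 at an unadjusted p under 0.05), DESeq2 called 2, and 3 were called when the lowest 25% of peaks were left out. The start-site peak was lower, 154 and 148 in WT and 91.4 and 94.6 in SgshKO (-0.69 ± 0.11, adjusted p = 0.000229, not called after quantile normalization). Hs6st2 fell from 16.4 and 22.03 to 10.5 and 7.62 (-1.01 ± 0.29, adjusted p = 0.014) and Hs6st3 from 106 and 87.5 to 67.7 and 71.7 (-0.46 ± 0.14, adjusted p = 0.0184). Scaled to tags in peaks, neither was called, and quantile normalization gave Hs6st3 a change of 0.048. In microglia and Olig2+ nuclei the Hs6st1 start-site peak did not pass the test (adjusted p = 0.194 and 0.1).

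The 3-O-sulfotransferases place the rarest modification, which creates binding sites for a few partners such as antithrombin. In NeuN+ nuclei 5 of the 6 members had a lower start-site peak. Hs3st1 (chromosome 5, 39644613 to 39644831) had 169 and 152 normalized tags in WT and 69.1 and 56.5 in SgshKO. Both SgshKO libraries were over 2-fold below both WT libraries (-1.34 ± 0.13, adjusted p = 2.07e-06). Hs3st5 fell from 97.4 and 103 to 47.5 and 45.7 (-1.09 ± 0.14, adjusted p = 3.09e-05) and Hs3st3b1 from 52.1 and 48.6 to 18.1 and 24.8 (-1.21 ± 0.20, adjusted p = 0.000356). Hs3st2 fell by a log2 change of -1.36 ± 0.27 (adjusted p = 0.00127) and Hs3st4 by -1.05 ± 0.22 (adjusted p = 0.00216), the latter losing its call without WT replicate 1 and Hs3st2 without WT replicate 2. Hs3st2, Hs3st3b1 and Hs3st4 were not called by DESeq2. The 5 directions were the same under each scaling, and the sixth gene, Hs3st3a1, had no start-site peak in this sort.

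Away from the starts the same family also gave higher peaks in NeuN+ nuclei. An intergenic Hs3st3b1 peak 143754 bp from the start rose from 1.13 and 2.82 normalized tags to 15.4 and 18.4 (2.64 ± 0.38, adjusted p = 7.54e-05). A peak in a repeat 187955 bp upstream of Hs3st4 rose from 1.70 and 3.95 to 17.4 and 16.5 (2.30 ± 0.36, adjusted p = 0.000194). In both, WT values were at a few tags. Over the family, 12 of 52 peaks in NeuN+ nuclei were higher and 10 lower, where 10.2% of all NeuN+ peaks were higher and 19.6% lower. Of the 8 within 1000 bp of a start 6 were lower, where 44.9% of all peaks near starts were. Hs3st1, with 239 and 244 at its start in WT Olig2+ nuclei and 237 and 249 in SgshKO, did not differ there beyond the spread (adjusted p = 0.946).

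Hs3st3b1 also gave called peaks in the other sorts. In microglia an intron 1 peak 24209 bp from its start fell from 50.1 and 36.4 to 15.6 and 10.2 (-1.68 ± 0.42, adjusted p = 0.0102), a call lost with either WT library left out. In Olig2+ nuclei 2 neighbouring intergenic peaks far downstream of the start moved apart. The one at 303239 bp rose from 50.8 and 50.1 to 87.3 and 99.0 (0.87 ± 0.15, adjusted p = 0.000101), and the one at 302683 bp fell from 12.4 and 10.2 to 4.30 and 1.99 (-1.63 ± 0.38, adjusted p = 0.00302). The first kept its call under each of the 13 alternatives, and the second lost it with either WT library left out.

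SULF2 trims 6-O-sulfate outside the cell. In Olig2+ nuclei 12 of the 71 Sulf2 peaks were lower and 0 higher (0 higher at an unadjusted p under 0.05, in edgeR or in DESeq2), and 57 of the 71 changes were below 0. Of all Olig2+ peaks 11.7% were lower and 8.17% higher. The median log2 change was -0.35, against -0.07 for all peaks of the table. The count was 6 after quantile normalization, 9 with median-of-ratios scaling, 4 and 5 without WT replicate 1 and 2, and 1 of 28 tested in DESeq2. Summed over the 71 peaks, which cover 22676 bp, the WT libraries had 1886 and 1885 normalized tags and the SgshKO libraries 1436 and 1499.6. The peak of smallest p (chromosome 2, 166142924 to 166143142, intron 1 of 21) fell from 371 and 341 to 271 and 275 (-0.38 ± 0.08, adjusted p = 0.000652), and was not called by DESeq2. The start-site peak fell from 38.9 and 38.9 to 25.2 and 26.6 (-0.57 ± 0.20, adjusted p = 0.0453), a call lost when any 1 library was left out. Another Olig2+ peak, 195 bp past the start, did not fall, with 42.5 and 37.3 in WT and 42.4 and 45.9 in SgshKO. Of the 4 Sulf2 peaks within 1000 bp of a start in that sort, 1 was lower and 0 higher. Beside these values, the summed signal at oligodendrocyte marker starts was 3757 and 3711 in the WT and 3107 and 3112 in the SgshKO Olig2+ libraries, and that at oligodendrocyte precursor markers was 272 and 270.0 in WT and 326 and 328 in SgshKO. Their part in the Sulf2 result was not tested, and in bulk libraries fewer cells of a type cannot be told apart from less accessible DNA per cell.

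Microglial Sulf2 peaks changed both ways. A peak in intron 3 (chromosome 2, 166116035 to 166116241) rose from 6.91 and 7.62 normalized tags to 60.6 and 47.4. Both SgshKO libraries were over 6-fold above both WT libraries (2.72 ± 0.43, adjusted p = 5.87e-05), and the call held under each of the 13 alternatives. Towards the end of the gene, a peak in intron 11 fell from 25.1 and 27.1 to 6.93 and 10.2 (-1.52 ± 0.46, adjusted p = 0.0351), and it lost its call in DESeq2, with either WT library left out and when the lowest 25% of peaks were left out. In NeuN+ nuclei 3 of 17 Sulf2 peaks were lower and 0 higher, where 19.6% of all peaks were lower and 10.2% higher. There 15 of the 17 changes were below 0, with a median of -0.55 against -0.23 for all peaks. A NeuN+ peak 194 bp past the Sulf2 start had 22.1 and 23.7 in WT and 10.5 and 12.1 in SgshKO. Sulf1, with peaks in NeuN+ nuclei alone, had 36.2 and 32.8 at its start in WT and 44.0 and 28.6 in SgshKO (adjusted p = 0.897).

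Among the syndecans, the transmembrane cores, Sdc4 had a peak in intron 1 that rose in microglia and another that rose in Olig2+ nuclei. These 2 peaks overlap only at their edges. Microglia (chromosome 2, 164436846 to 164437101) had 3.46 and 0.00 normalized tags in WT and 31.2 and 11.1 in SgshKO (3.23 ± 0.61, adjusted p = 0.000602). Olig2+ nuclei (chromosome 2, 164436514 to 164436852) had 21.8 and 12.3 in WT and 35.7 and 41.2 in SgshKO (1.18 ± 0.24, adjusted p = 0.00101). In each sort both SgshKO libraries were above both WT libraries, and in each the call was lost without WT replicate 2. At the Sdc4 start, NeuN+ nuclei fell from 32.9 and 20.3 to 10.5 and 17.8 (-0.87 ± 0.29, adjusted p = 0.0288), not called under any other scaling, while microglia overlapped at 45.8 and 46.6 in WT and 66.7 and 28.8 in SgshKO. A microglial Sdc1 peak 1135 bp past the start fell from 11.2 and 9.32 to 2.60 and 0.00 (-2.57 ± 0.60, adjusted p = 0.00533), at few tags, a call lost with either WT library left out. Where 19.6% of all NeuN+ peaks were lower, Sdc3, the neuronal syndecan, had 6 of 24 peaks lower, 1 of them 462 bp past the start. The start-site peak was not among them and had 25.5 and 19.8 in WT and 20.2 and 23.5 in SgshKO (adjusted p = 0.907). The Sdc2 start-site peak was not called in NeuN+ or Olig2+ nuclei (adjusted p = 0.101 and 0.193).

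Glypicans are held at the membrane by a lipid anchor. The Gpc5 start-site peak had the smallest p of all member peaks in NeuN+ nuclei (chromosome 14, 115092105 to 115092326): 125 and 122 normalized tags in WT and 44.7 and 45.7 in SgshKO. Both SgshKO libraries were over 2-fold below both WT libraries (-1.43 ± 0.14, adjusted p = 1.72e-06). In Olig2+ nuclei the same site had 57.6 and 56.8 in WT and 60.9 and 61.8 in SgshKO, with no call (adjusted p = 0.684), and in microglia 78.6 and 66.1 in WT and 105 and 136 in SgshKO (adjusted p = 0.157). An intergenic peak 21493 bp upstream fell in Olig2+ nuclei from 12.4 and 28.6 to 3.69 and 10.6 (-1.43 ± 0.37, adjusted p = 0.00743), with a call lost without WT replicate 2 or SgshKO replicate 1.

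Gpc1 went opposite ways in the nuclei. Its start-site peak fell in NeuN+ nuclei from 66.3 and 70.6 to 35.6 and 36.8 (-0.90 ± 0.16, adjusted p = 0.0006) and rose in Olig2+ nuclei from 79.9 and 82.3 to 101 and 109 (0.37 ± 0.13, adjusted p = 0.0435), the second call being lost in DESeq2 and without WT replicate 1, WT replicate 2 or SgshKO replicate 2. An intergenic peak 44365 bp upstream of Gpc1 rose in Olig2+ nuclei from 70.0 and 56.2 to 107 and 107 (0.76 ± 0.14, adjusted p = 0.000288) and kept its call under each of the 13 alternatives. Gpc2, whose start-site peak is also within 1000 bp of the start of Stag3, fell in NeuN+ nuclei from 54.4 and 46.9 to 25.1 and 18.4 (-1.19 ± 0.21, adjusted p = 0.000427). In microglia Gpc2 had 302 and 294 in WT and 578 and 431 in SgshKO, and in Olig2+ nuclei 47.7 and 54.2 in WT and 75.0 and 63.8 in SgshKO, and both missed the threshold (adjusted p = 0.0672 and 0.0513). Gpc6 had 5 of 20 peaks higher and 3 lower in NeuN+ nuclei, against 10.2% and 19.6% of all peaks there. Its start-site peak was not called (adjusted p = 0.792), and DESeq2 called 0 Gpc6 peaks in either direction (4 higher and 3 lower at its unadjusted p under 0.05).

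Agrin, the secreted core that organises the neuromuscular junction and is also found in brain, was called at its start in each sort. Microglia rose from 38.9 and 48.3 normalized tags to 109.95 and 129.97 (1.44 ± 0.32, adjusted p = 0.00382), a call lost with either WT library left out. Olig2+ nuclei rose from 179 and 199 to 229.9 and 251 (0.34 ± 0.09, adjusted p = 0.00877), a call lost without WT replicate 1 or SgshKO replicate 2. NeuN+ nuclei fell from 72.5 and 71.2 to 44.7 and 34.3 (-0.86 ± 0.17, adjusted p = 0.00118), a call lost after quantile normalization and in DESeq2. WT and SgshKO libraries did not overlap in any of the 3.

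In NeuN+ nuclei the start-site falls stood beside lower signal at the neuronal marker starts themselves: the summed signal at 10 neuronal marker starts was 1199 and 1116 normalized tags in the WT and 640.1 and 641 in the SgshKO libraries. The microglial marker sum in microglia overlapped, at 2725 and 2400.0 in WT and 3081 and 2378 in SgshKO. Oligodendrocyte markers summed to 619 and 568 in WT and 701 and 538 in SgshKO microglia, and 233 and 198 in WT and 109.6 and 117 in SgshKO NeuN+ nuclei. The part of these and of the lower share of tags in peaks in the member results was not tested.

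How the member sites differed between sorts in WT mice was tested on the 16761 peaks that overlapped one to one by at least 50% in all 3 tables, in 1 limma model of the 12 libraries, which takes them as independent. Among them were 35 member peaks of 19 genes. In WT, 20 were higher and 5 lower in microglia than in NeuN+ nuclei (46.5% and 19.3% of the 16761), 19 higher and 6 lower than in Olig2+ nuclei (42.7% and 24.5%), and NeuN+ against Olig2+ nuclei gave 7 higher and 11 lower (19.1% and 30.4%). Scaled to tags in peaks, the first split became 7 and 13, the second 12 and 13 and the third 11 and 7, while the median difference of all shared peaks between microglia and NeuN+ nuclei moved from 0.47 to -0.49. Sorts also differ in fixation and in the share of tags in peaks, which cannot be told apart from cell type here.

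The Gpc2, Extl1 and Ext1 differences given next remained called under each alternative in which the peak was tested. At a reciprocal overlap of 80% the Gpc2 and Ext1 peaks were not among the shared peaks. At Gpc2, the start-site peak had 298 ± 6.02 normalized tags in WT microglia (SD, n = 2), 50.6 ± 5.31 in WT NeuN+ and 51.0 ± 4.58 in WT Olig2+ nuclei. Microglia were above both nuclei sorts (log2 differences 2.54 ± 0.18 and 2.53 ± 0.18, adjusted p = 4.55e-11 and 4.39e-11). Extl1, a glycosyltransferase of the EXT family, had 126 ± 12.1, 44.4 ± 4.49 and 16.0 ± 3.07 in the same order (2.91 ± 0.24 for microglia minus Olig2+ nuclei, adjusted p = 2.46e-10). An Ext1 peak 2849 bp past its start had 216 ± 4.25 in microglia and 13.3 ± 3.63 in NeuN+ nuclei (3.95 ± 0.27, adjusted p = 2.11e-11).

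At Agrn 2 adjoining peaks differed in the place of microglia, lowest at one and highest at the other, while NeuN+ nuclei were below Olig2+ nuclei at both. The peak at the start had 43.6 ± 6.65 in WT microglia, 71.8 ± 0.95 in NeuN+ and 189 ± 13.8 in Olig2+ nuclei, with microglia below Olig2+ nuclei (-2.10 ± 0.17, adjusted p = 3.39e-10) and NeuN+ below Olig2+ nuclei (-1.38 ± 0.17, adjusted p = 6.19e-07). This peak was 230, 228 and 337 bp wide in these sorts. Over the alternatives, which include a scaling by peak width, the 2 differences ranged from -2.80 to -1.55 and from -1.46 to -0.82. The one 568 bp upstream had 235 ± 23.3, 25.7 ± 6.05 and 68.8 ± 4.70, with microglia highest (3.16 ± 0.18 against NeuN+ nuclei, adjusted p = 1.41e-12) and NeuN+ again below Olig2+ nuclei (-1.40 ± 0.18, adjusted p = 1.25e-06). Under the alternatives this upstream peak was followed only for microglia against NeuN+ nuclei, where it stayed called. NeuN+ nuclei exceeded Olig2+ nuclei at the starts of Xylt1 (44.7 ± 7.30 against 13.2 ± 4.14, log2 difference 1.71 ± 0.27, adjusted p = 1.56e-05) and Gpc5 (124 ± 2.26 against 57.2 ± 0.57, log2 difference 1.10 ± 0.18, adjusted p = 1.83e-05).

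Whether the genotype change itself differed between sorts was tested by the interaction terms of the same model. The change was more positive in microglia than in NeuN+ nuclei at 14 of the 35 member peaks and more negative at 0 (40.8% and 1.68% of shared peaks, with 0 more negative at an unadjusted p under 0.05 and 3 in edgeR). Against Olig2+ nuclei it was more positive in microglia at 6 and more negative at 0 (17.6% and 3.99%, with 1 more negative at an unadjusted p under 0.05 and 1 in edgeR). Between NeuN+ and Olig2+ nuclei it was more negative in NeuN+ nuclei at 12 and more positive at 0 (30.8% and 0.913%, with 1 more positive at an unadjusted p under 0.05 and 1 in edgeR). After quantile normalization these counts became 7 and 1, 3 and 1, and 2 and 1. With in-peak scaling they were 9 and 2, 3 and 0, and 6 and 1. The 6 of microglia against Olig2+ nuclei became 2 without microglia WT replicate 2, Olig2+ WT replicate 1 or Olig2+ SgshKO replicate 1.

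Of the member peaks, Xylt2 had the smallest p in both comparisons with microglia: its change exceeded that of NeuN+ nuclei by 2.64 ± 0.24 (adjusted p = 6.23e-09) and that of Olig2+ nuclei by 1.72 ± 0.24 (adjusted p = 1.22e-05). Agrn followed, by 2.30 ± 0.24 (adjusted p = 7.26e-08) and 1.10 ± 0.24 (adjusted p = 0.00209). Both genes kept these 4 calls under each of the 19 alternatives. Ndst2 differed between microglia and NeuN+ nuclei by 1.86 ± 0.21 (adjusted p = 1.5e-07). The change at Gpc2 was lower in NeuN+ than in Olig2+ nuclei by a log2 difference of -1.63 ± 0.26 (adjusted p = 0.000183) and that at Gpc5 by -1.53 ± 0.25 (adjusted p = 0.000208).

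**Figure D4:**
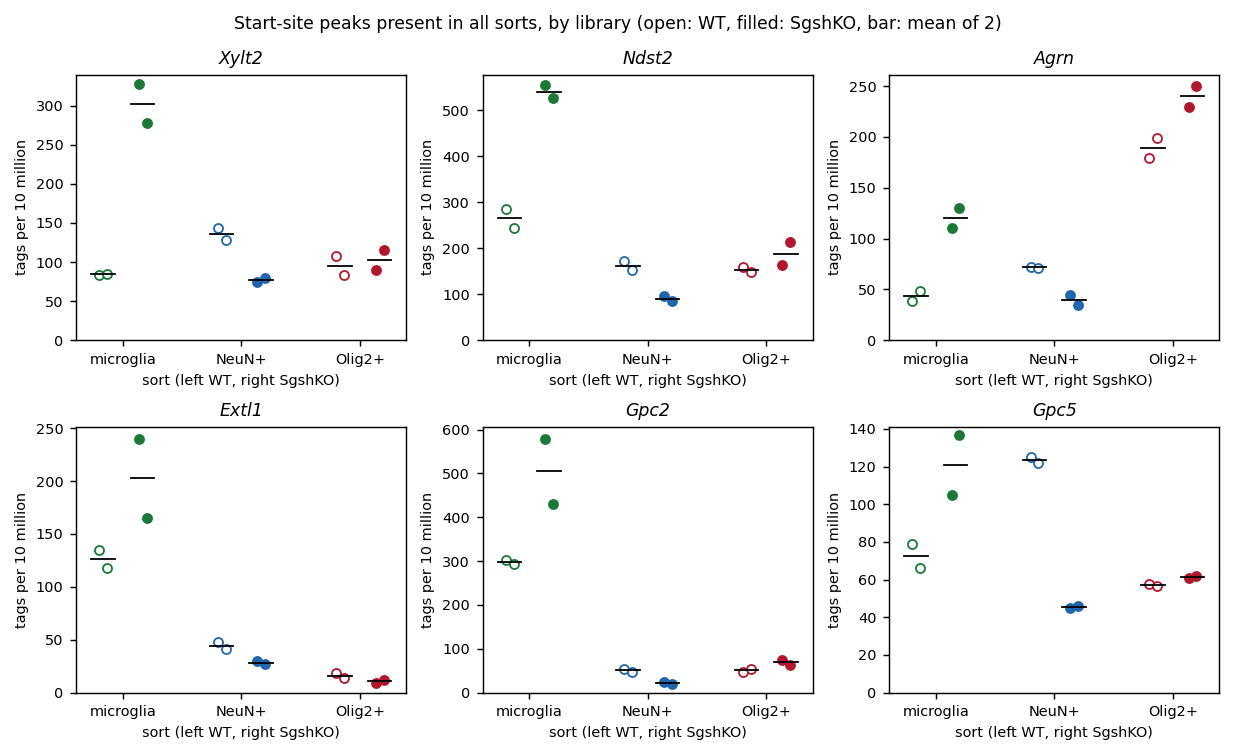
Normalized tags (y axis, tags per 10000000, from 0) at the start-site peaks of 6 genes found in all sorts, with 1 point per library, open for WT and filled for SgshKO, and a bar at the mean of 2. At Xylt2, Ndst2 and Agrn the filled points are above the open ones in microglia and below them in NeuN+ nuclei. Gpc2 and Extl1 are highest in microglia, and Gpc5 falls in NeuN+ nuclei from 125 and 122 to 44.7 and 45.7.

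Overlapping places called in 2 sorts were counted without a shared model. An overlap of at least 1 bp was enough, and the Sdc4 peaks counted below share only their edges. Member peaks of microglia and Olig2+ nuclei that overlapped and were both called numbered 5 (at the Agrn start, the Extl3 upstream island, Sdc4 intron 1 and 2 places in Xylt1), and 5 moved in the same direction, against 70.5% of all such pairs. For microglia and NeuN+ nuclei there were 4 (Agrn, the Extl3 island, Ndst2 and Xylt2) and 4 moved in opposite directions, where 11.4% of all such pairs moved together. For NeuN+ and Olig2+ nuclei there were 3 (Agrn, the Extl3 island and Gpc1) and 3 were opposite, with 44.0% of all pairs together. The sorts have their own WT libraries, but whether libraries of different sorts came from the same animals is not in the sources used here.

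Neighbouring pathways were described by 5 lists. Of peaks within 1000 bp of a start, the 11 genes of precursor supply and xylose phosphorylation had 3 of 18 higher and 0 lower in microglia, 14 of 17 lower and 0 higher in NeuN+ nuclei, and 5 of 18 higher and 0 lower in Olig2+ nuclei. The 11 genes of heparan sulfate breakdown had 2 of 17 higher and 0 lower, 5 of 8 lower and 0 higher, and 1 of 12 higher and 0 lower. For the 16 genes of chondroitin sulfate synthesis, the sister chain that shares the linkage region, the counts were 3 higher and 1 lower of 29, 13 lower and 0 higher of 22, and 2 higher and 0 lower of 18. The 7 chondroitin sulfate cores had 1 of 3 lower in microglia, 3 of 7 lower in NeuN+ and 1 of 6 higher in Olig2+ nuclei. The 11 other cores that can carry heparan sulfate had 2 higher and 1 lower of 15, 6 lower of 12 and 2 higher of 7. Of all peaks near starts, 8.59% were higher and 1.2% lower in microglia, 44.9% were lower in NeuN+ nuclei and 12.7% were higher in Olig2+ nuclei.

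Uxs1, which makes the UDP-xylose used by the xylosyltransferases, rose at its start in microglia from 96.8 and 59.3 to 233 and 243 normalized tags (1.64 ± 0.30, adjusted p = 0.000382). Papss1, which makes the sulfate donor, fell in NeuN+ nuclei from 589 and 581 to 352 and 340.3 (-0.76 ± 0.06, adjusted p = 4.57e-07), and Fam20b, the xylose kinase, rose in Olig2+ nuclei from 235 and 214 to 305 and 316 (0.47 ± 0.08, adjusted p = 0.000163). The breakdown gene Hgsnat, a lysosomal acetyltransferase, rose in microglia (1.42 ± 0.27, adjusted p = 0.000654) and fell in NeuN+ nuclei (-1.02 ± 0.12, adjusted p = 1.4e-05). Of the chondroitin genes, Chst12 rose in microglia from 64.0 and 61.0 to 202 and 312 (1.99 ± 0.30, adjusted p = 2.74e-05) and Vcan, the versican core, fell there (-1.90 ± 0.45, adjusted p = 0.00643). Gpc4, a glypican outside the 36 genes, had the largest change among these: 5.19 and 5.08 in WT and 64.9 and 46.4 in SgshKO microglia (3.19 ± 0.45, adjusted p = 9.44e-06). Spock1 fell in NeuN+ nuclei (-1.34 ± 0.23, adjusted p = 0.000481), and Tgfbr3, which carries chains beside its role in TGF-beta binding, rose in Olig2+ nuclei (0.99 ± 0.21, adjusted p = 0.00153).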

How the data were processed

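ATAC-seq was measured in 12 libraries, 2 per genotype and sort. The deposited tables, 1 per sort, hold peaks annotated to the nearest gene start and a coverage signal per library, which per the file headers is tags normalized by the authors to 10000000 per library. The submitters' processing notes name Bowtie2, HOMER and mm10. For peak calling settings, read shifting and duplicate removal the sources used here give nothing. Division by the value of 1 read gave whole reads for 100.0% of values (within 0.01). Columns matched to no sample numbered 0.

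SgshKO was compared with WT in each table with limma 3.58.1 (R 4.3.3, trend) on log2(signal + 1), with no filter and Benjamini-Hochberg adjustment over all its peaks. The sorts were compared in 1 limma model of 12 libraries on the 16761 peaks with reciprocal overlap of at least 50%, taking libraries as independent, since no source used here ties those of different sorts to the same animals. Alternatives on the recovered reads were edgeR 4.0.16 and DESeq2 1.42.0; on the signal, other pseudocounts, scalings, a filter on low peaks, a replicate block and leaving out each library were tried. The tests were checked on simulated counts.

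Named were each start-site peak, the called peaks of smallest p (up to 6 per direction and table, 1 per gene), the 3 shared peaks of smallest p per contrast and 1 start-site peak per pathway list. Other called peaks were singled out after their values were seen. The members and lists were chosen with earlier results of these data known. Promoter windows came from RefSeq (GRCm38.p6).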

Additional observations from a re-analysis of the deposited data

Results flagged for a closer look

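The 3 member peaks of smallest p in each interaction test lay at 6 sites (limma, SgshKO minus WT in the first sort less that in the second, n = 2 per group). They are part of the 14, 6 and 12 member peaks called for microglia against NeuN+, microglia against Olig2+ and NeuN+ against Olig2+ nuclei. Of all shared peaks, 40.8%, 17.6% and 30.8% were called in the same direction. Xylt2, the second xylosyltransferase, differed by 2.64 between microglia and NeuN+ nuclei (adjusted p = 6.23e-09) and by 1.72 between microglia and Olig2+ nuclei (adjusted p = 1.22e-05). Agrn, which encodes agrin, differed by 2.30 (adjusted p = 7.26e-08) and 1.10 (adjusted p = 0.00209) in the same comparisons. Ndst2, an N-sulfating enzyme, differed by 1.86 between microglia and NeuN+ nuclei (adjusted p = 1.50e-07) and by -1.11 between NeuN+ and Olig2+ nuclei (adjusted p = 0.000553), the latter not called after quantile normalization. Extl1 differed by 1.21 between microglia and Olig2+ nuclei (adjusted p = 0.0111) and lost its call after quantile normalization and without microglia WT replicate 2, Olig2+ WT replicate 1 or Olig2+ SgshKO replicate 1. The glypicans Gpc2 and Gpc5 differed by -1.63 (adjusted p = 0.000183) and -1.53 (adjusted p = 0.000208) between NeuN+ and Olig2+ nuclei. Each is the start-site peak of its gene. The interaction is computed from the same values as the changes within each sort, so a match in sign between them is no separate support.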

How the results depend on the processing

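Of the called peaks followed one by one under the alternatives, 1 changed direction: the Hs6st3 start-site peak in NeuN+ nuclei went to 0.048 after quantile normalization. Uncalled start-site peaks, peaks of the pathway lists and called peaks singled out later were not followed in this way. The count of called microglia peaks was 29 and became 50 with edgeR and 17 with DESeq2. In NeuN+ nuclei 102 became 62 after quantile normalization and 20 with DESeq2, and in Olig2+ nuclei 47 became 12 with DESeq2, which left part of the Olig2+ peaks untested. At a reciprocal overlap of 80%, which kept 5278 of 16761 shared peaks, the WT counts became 7, 9 and 5 (microglia against NeuN+, microglia against Olig2+, NeuN+ against Olig2+) and the interaction counts 4, 2 and 2. Interaction counts also became 8 (microglia against NeuN+, quantile normalization), 3 (microglia against Olig2+, in-peak scaling) and, for NeuN+ against Olig2+ nuclei, 7 with in-peak scaling, 3 after quantile normalization and 4 with edgeR. Leaving out 1 library gave 2 to 53 in microglia, 0 to 43 in NeuN+, 17 to 52 in Olig2+ nuclei and 2 to 8 for the microglia against Olig2+ interaction. The cause of these moves was not tested. With the replicate number as a replicate block the microglia count became 51, and NeuN+ and Olig2+ nuclei had 116 and 56. The numbers share no stated source, and deviations of same-numbered libraries correlated at 0.042, 0.004 and 0.001. At a median of 17 to 39 reads per peak and library, depth limits what can be seen at single weak peaks.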
